A study of Mus musculus with 11 samples.

Results

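Gastrocnemius muscle labelled as a double knockout of Raptor and mTOR was compared with wild-type gastrocnemius across every expressed gene. The comparison used the 4 libraries with the genotype Raptor mTOR double knock-out and the 4 with the genotype wildtype, 8 of the 11 libraries of the series. The other 3 libraries, from Raptor knock-out muscle, entered the fit but not the contrast. By the labels, floxed Raptor and floxed mTOR alleles were recombined in the double knockout by HSA-Cre, a tamoxifen-dependent Cre (a fusion to a mutated oestrogen receptor domain) under the promoter of human skeletal actin, which works in muscle fibres. All groups, wild type included, carry the same tamoxifen label. Tamoxifen chow was begun at 3 months of age and given for 7 weeks, and muscles were taken 7 months after its start. The labels do not say whether wild-type mice carried Cre or floxed alleles. Cells of the muscle other than fibres do not express this Cre and keep both genes, and their RNA is part of each library. Libraries were made from 450 ng of total RNA with a kit that reads the 3' end of polyadenylated transcripts (QuantSeq 3' mRNA FWD). Whether each library came from a separate mouse is not stated, so p-values measure the spread between these libraries.

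mTOR is a protein kinase that works in a pair of complexes. Complex 1, defined by its subunit Raptor, promotes protein synthesis, ribosome production and growth when amino acids and growth factors are present, and restrains autophagy. Complex 2 contains mTOR without Raptor and acts on Akt and the cytoskeleton. Deleting both genes in a fibre therefore removes the kinase of both complexes. In muscle, complex 1 is known for its part in fibre growth and in the oxidative programme.

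The 18 defining genes of skeletal muscle examined were all measured, with summed levels of 177455 to 189876 CPM (counts scaled to a common library size by TMM) in wild type and 138028 to 167716 CPM in the double knockout. Depth ran from 3134575 to 6328533 counts in the wild-type libraries and from 2791339 to 3536731 in the double-knockout libraries. Double-knockout replicates 3 and 4 were counted in a separate, smaller sequencing run, and the other 6 libraries shared a run. Wild-type replicate 4 stood apart in its counts. They differed from those of the other wild-type libraries by a chi-square of 39.9 to 45.6 per degree of freedom. The values were 8.84 to 18.9 among these others and 48.8 to 56.8 between replicate 4 and the double knockout. On the main axis of variation in log2 CPM (39.5% of the variance) it was at -33.4, beside wild-type replicate 3 at -34.3. Wild-type replicates 1 and 2 were at -46.5 and -49.8, and the double knockouts at 19.9 to 37.9. Without wild-type replicate 4, 1655 genes were called higher and 1689 lower, in place of the 1367 and 1435 given below. Sample titles begin with a number whose meaning is not stated. Those of wild-type replicates 1 and 2 (38 and 41) lie among the numbers of the Raptor knockouts (36 to 54), and those of replicates 3 and 4 (73 and 77) beside those of the double knockouts (74 to 81). With wild-type replicates 3 and 4 as the only wild-type libraries, an alternative chosen after the data were seen, 734 genes were higher and 857 lower. In this fit 100% of the called genes with a value kept their direction. They had been called with these same libraries, so that share is a description. The sex of the mice is not in the labels. Xist, the RNA of the inactive X chromosome, was at 95.6 to 208 CPM in double-knockout replicates 1, 2 and 3 and in wild-type replicate 3, where Ddx3y, on the Y chromosome, was at 0 to 0.316 CPM. Xist was at 0 to 0.291 CPM in wild-type replicates 1, 2 and 4 and double-knockout replicate 4, the libraries that held Ddx3y at 59.6 to 91.8 CPM. The groups are therefore unbalanced for Xist, and results are given below with Xist as a covariate and with the 3 wild-type libraries against the 1 double-knockout library without Xist, in which the lone library was assumed to vary like the other groups.

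Rptor, which encodes Raptor, was measured at 10.6, 9.65, 10.5 and 8.57 CPM in the wild-type libraries and at 5.37, 5.12, 4.77 and 4.07 CPM in the double-knockout libraries. The groups did not overlap, and the log2 fold change was -1.02 (SE 0.21, adjusted p = 0.00156). On the deposited TPM scale the fall was smaller, -0.31, and did not pass (limma, adjusted p = 0.165). Mtor was measured at 15.2, 16.8, 22.9 and 28.2 CPM in wild type and at 39.5, 31.8, 34.7 and 37.5 CPM in the double knockout (log2 fold change 0.78, SE 0.19, adjusted p = 0.00534). The Mtor tags thus went against the label in direction. Reads from the 3' end of a transcript do not report the loss of a floxed exon elsewhere, so neither gene checks its deletion here. Against wild-type replicates 3 and 4 alone, the difference in Mtor was 0.51 and did not pass (adjusted p = 0.0807).

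Of 10505 tested genes, 2802 passed an adjusted p under 0.05 (edgeR quasi-likelihood test, Benjamini-Hochberg), which is 26.7% of them. Of these, 1367 were higher in the double knockout (13% of tested genes) and 1435 were lower (13.7%). The median log2 fold change was 0.93 among the genes that rose and -0.87 among those that fell. More than 8-fold changes were found for 41 of the risen and 23 of the fallen genes. The split between directions depends on the scaling: 48.8% of calls were higher with TMM, 74.2% with library totals (2421 higher, 844 lower), which moved the median of all genes from 0.02 to 0.25, and 69.4% with limma on TPM (1766 higher, 779 lower). With Xist as a covariate 882 genes were higher and 967 lower. Without the Xist libraries 238 were higher and 234 lower, while 99.6% of the called genes with a value kept their direction. Without the double-knockout libraries of the smaller run 945 were higher and 974 lower. The called genes were chosen by this contrast in the same libraries, so a direction kept under an alternative is a description.

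**Figure D1:**
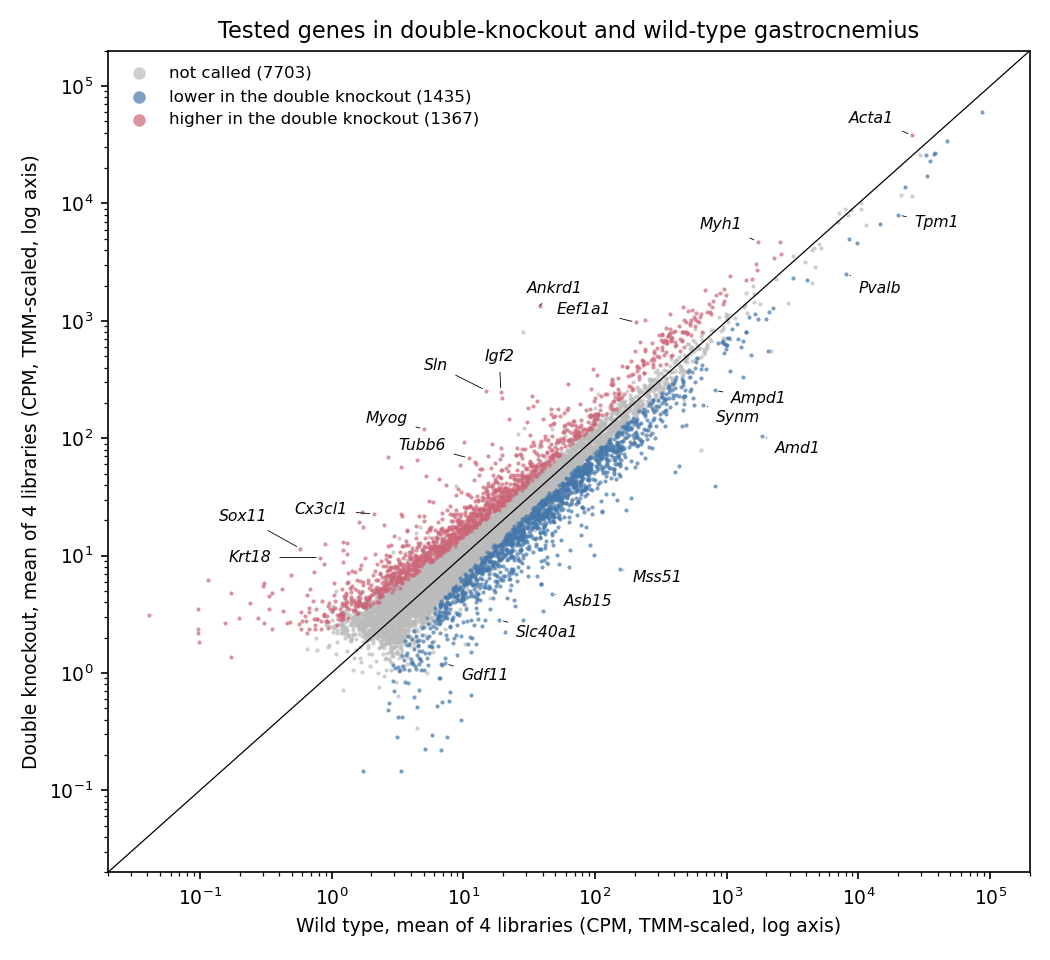
Mean level of each tested gene in wild type (horizontal axis) and double knockout (vertical axis), both in CPM on log axes, with 4 libraries per mean. Red points are the 1367 genes called higher and blue points the 1435 called lower, the line marks equal levels, and 2 called genes and 1 other with a mean of 0 in either group are not drawn.

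The most abundant transcripts of wild-type muscle took a smaller share of the counts in the double knockout. The 20 genes with the highest wild-type level took 46.0% to 48.5% of the counts in wild-type libraries and 37.1% to 42.3% in double-knockout libraries. Of these 20 genes 7 are encoded by mitochondrial DNA, 12 fell and 1 rose. Genes that rose went from between 9.70% and 11.2% of the counts to between 20.5% and 23.2%, whereas genes that fell went from between 47.1% and 53.2% to between 34.8% and 37.5%. These genes were chosen by this contrast, so their shares are a description. Among the genes with a mean level above 512 CPM, 39.5% rose and 23.4% fell. The loss was concentrated: 8 genes held 52.7% of the CPM lost by the fallen genes, against 26.8% of the gain for the 8 genes that gained most. Of the 8 with the largest loss, 5 are mitochondrially encoded: mt-Nd4, mt-Nd2 and mt-Nd1 of complex I, mt-Cytb of complex III and mt-Co3 of complex IV. The others were Gm10925, a predicted gene annotated on chromosome 1, and the thin-filament genes Tpm1 and Tnnc2. Whether the reads given to Gm10925 came from near-identical sequence elsewhere was not tested, and the mitochondrial counts given here leave it out. Wild-type replicate 4 was the highest wild-type library for 6 of the 8, and the groups overlapped for mt-Nd1 and mt-Co3. The calls of mt-Nd4, mt-Cytb, mt-Co3 and Gm10925 were lost with library totals (adjusted p = 0.0842, 0.127, 0.157 and 0.0659).

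Tpm1, the alpha-tropomyosin of the thin filament, stood at 21030, 19557, 19477 and 19686 CPM in wild type and at 7528, 7752, 8110 and 8549 CPM in the double knockout, a log2 fold change of -1.32 (SE 0.10, adjusted p = 3.35e-07). Its partner Tpm2, beta-tropomyosin, rose from between 1214 and 1914 CPM to between 2687 and 3336 CPM (0.87, SE 0.14). Acta1, the skeletal alpha-actin whose promoter region drives the Cre in these mice in its human form, rose from between 24105 and 26659 CPM to between 32691 and 42117 CPM (0.59, SE 0.11). Myh1, the myosin heavy chain of type 2X fibres, was at 1907, 1823, 1310 and 1828 CPM in wild type and at 3887, 2865, 5619 and 6579 CPM in the double knockout. All double-knockout libraries were above the wild-type ones for Myh1, and they spread widely among themselves (1.46, SE 0.27, adjusted p = 0.00181). Mybpc2, the fast myosin-binding protein C, was also higher (0.59, SE 0.12).

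Several of the largest rises were in genes with little signal in wild-type muscle. Sox11, a transcription factor of developing tissues, was at 0.690, 1.07, 0.329 and 0.225 CPM in wild type and at 12.0, 9.97, 13.3 and 10.8 CPM in the double knockout (log2 fold change 4.39, SE 0.33, adjusted p = 2.97e-07). Rab15, a small GTPase of endocytic recycling, rose from 0.896 ± 0.603 to 12.6 ± 2.72 CPM (mean ± SD, n = 4 each). Cx3cl1, the chemokine fractalkine, was at 3.22, 1.43, 1.48 and 2.25 CPM in wild type and at 26.5, 18.9, 26.8 and 18.3 CPM in the double knockout. Its log2 fold change was 3.41 (SE 0.32, adjusted p = 2.37e-06). Nlrc3, a regulator of innate immune signalling, rose by 3.35 on the same scale, and Vash2, a tubulin carboxypeptidase that removes the terminal tyrosine of alpha-tubulin, by 3.34. The matrix protein gene Postn rose from between 0.357 and 4.44 CPM to between 15.4 and 30.2 CPM, and Ifi30, a lysosomal thiol reductase used in antigen processing, from between 5.75 and 17.3 CPM to between 68.3 and 138 CPM. G0s2, an inhibitor of adipose triglyceride lipase, rose 11.1-fold with a wide spread, 127, 161, 189 and 396 CPM in the double-knockout libraries against 10.4 to 39.0 CPM in wild type. Ankrd1, a stretch-responsive protein of the sarcomere I-band, had the largest rise of the named genes, from 38.1 ± 14.8 to 1346 ± 102 CPM (5.14, SE 0.26).

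Among the largest falls, Asb15, a muscle-enriched subunit of ubiquitin ligases, dropped from 39.3, 54.7, 45.1 and 48.7 CPM to 6.64, 2.96, 4.77 and 4.65 CPM (log2 fold change -3.30, SE 0.23, adjusted p = 1.36e-07). Gdap1, a protein of the outer mitochondrial membrane mutated in an inherited neuropathy, dropped from between 15.8 and 26.2 CPM to between 1.26 and 3.20 CPM. Slc40a1 encodes ferroportin, the iron exporter of cells. It was at 16.3, 24.0, 19.9 and 14.9 CPM in wild type and at 1.58, 2.42, 2.65 and 4.65 CPM in the double knockout (-2.70, SE 0.27). Ramp1, a subunit of the receptor for calcitonin gene-related peptide, was lower by the same log2 size, from 24.6 ± 2.35 to 3.73 ± 1.88 CPM. Actr3b, a paralogue of the Arp3 actin-nucleating subunit, was at 8.55 CPM in wild-type replicate 3, at 33.6 to 36.7 CPM in the other wild-type libraries and at 0.808 to 6.10 CPM in the double knockout. Ctxn3, a small membrane protein, fell from between 56.1 and 76.8 CPM to between 5.69 and 9.97 CPM, and Flrt1, an adhesion protein of the cell surface, from between 75.3 and 224 CPM to between 12.4 and 29.4 CPM. Rn7s1 and Rn7s2, copies of the signal recognition particle RNA with identical counts in every library, both had a log2 fold change of -2.77, and reads cannot be assigned between them.

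Of 30 tested genes of microtubules and non-muscle actin 20 rose and 1 fell, against 13% and 13.7% of all tested genes, and the median log2 fold change was 0.60 against 0.02 for all genes. Tuba1b, an alpha-tubulin, was at 56.8, 54.7, 63.5 and 76.6 CPM in wild type and at 294, 318, 282 and 275 CPM in the double knockout (2.21, SE 0.13, adjusted p = 4.44e-08). The beta-tubulins Tubb5 (1.93) and Tubb4b (1.46) also rose, from 46.7 ± 10.6 to 179 ± 15.3 CPM and from 202 ± 37.9 to 558 ± 21.4 CPM. Tubb6, a beta-tubulin of immature and regenerating muscle and named here after its values were seen, rose from between 7.40 and 15.2 CPM to between 57.2 and 74.3 CPM. With Xist as a covariate 12 members of the list rose, without the Xist libraries 6, without the smaller run 17, and against wild-type replicates 3 and 4 alone 11. Fibroblast and macrophage genes, given further on, moved in the same direction (summed levels of 1158 to 1866 CPM against 2213 to 2502 CPM, and of 91.2 to 159 CPM against 194 to 261 CPM), and their part in these rises was not tested.

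Of 17 tested intermediate filament and nuclear envelope genes 6 rose and 1 fell (3 without wild-type replicate 4). The shares over all tested genes were 13% and 13.7%. Krt18, a keratin that is scarce in adult muscle, was at 0.920, 2.15, 0 and 0.225 CPM in wild type and at 6.95, 12.4, 9.54 and 9.59 CPM in the double knockout (3.83, SE 0.53, adjusted p = 7.7e-05). Nes, the nestin of developing fibres and of fibre ends, rose from 15.3 ± 1.53 to 38.8 ± 6.50 CPM. Synm was the member that fell: synemin, which links desmin filaments to the costamere, was at 831, 783, 604 and 437 CPM in wild type and at 166, 141, 223 and 234 CPM in the double knockout (-1.79, SE 0.23, adjusted p = 6.42e-05).

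At the fibre membrane, 6 of 24 genes of the dystrophin complex and costamere rose and 3 fell. With library totals 10 rose and 1 fell, and with limma on TPM plus 1, 9 rose and 0 fell. The shares over all tested genes were 13% and 13.7%. Itga7, the integrin subunit that binds laminin at the fibre surface, was at 23.7, 22.2, 26.5 and 39.4 CPM in wild type and at 73.6, 98.0, 63.6 and 90.1 CPM in the double knockout (1.53, SE 0.19, adjusted p = 2.74e-05). Flnc, the muscle filamin, was higher by 1.08. Of 16 tested annexin and membrane repair genes 7 rose and 0 fell by this edgeR test (median log2 fold change 0.53), with Anxa4 at 1.25, Anxa2 at 1.26 and its partner S100a10 at 1.22. The members that rose were 5 with Xist as a covariate, 2 without the Xist libraries, 4 against wild-type replicates 3 and 4 alone, and 12 with library totals or limma on TPM. The fibroblast and macrophage levels given for the cytoskeleton moved in the same direction, and their part here was not tested. Among 22 tested channels and pumps 6 rose and 3 fell. The fallen were 1 without double-knockout replicate 4 and 0 with library totals or with limma on TPM plus 1. Cacng1, the gamma subunit of the skeletal calcium channel, rose from 243, 209, 207 and 278 CPM to 424, 399, 384 and 509 CPM (0.87, SE 0.14, adjusted p = 0.000273).

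**Figure D2:**
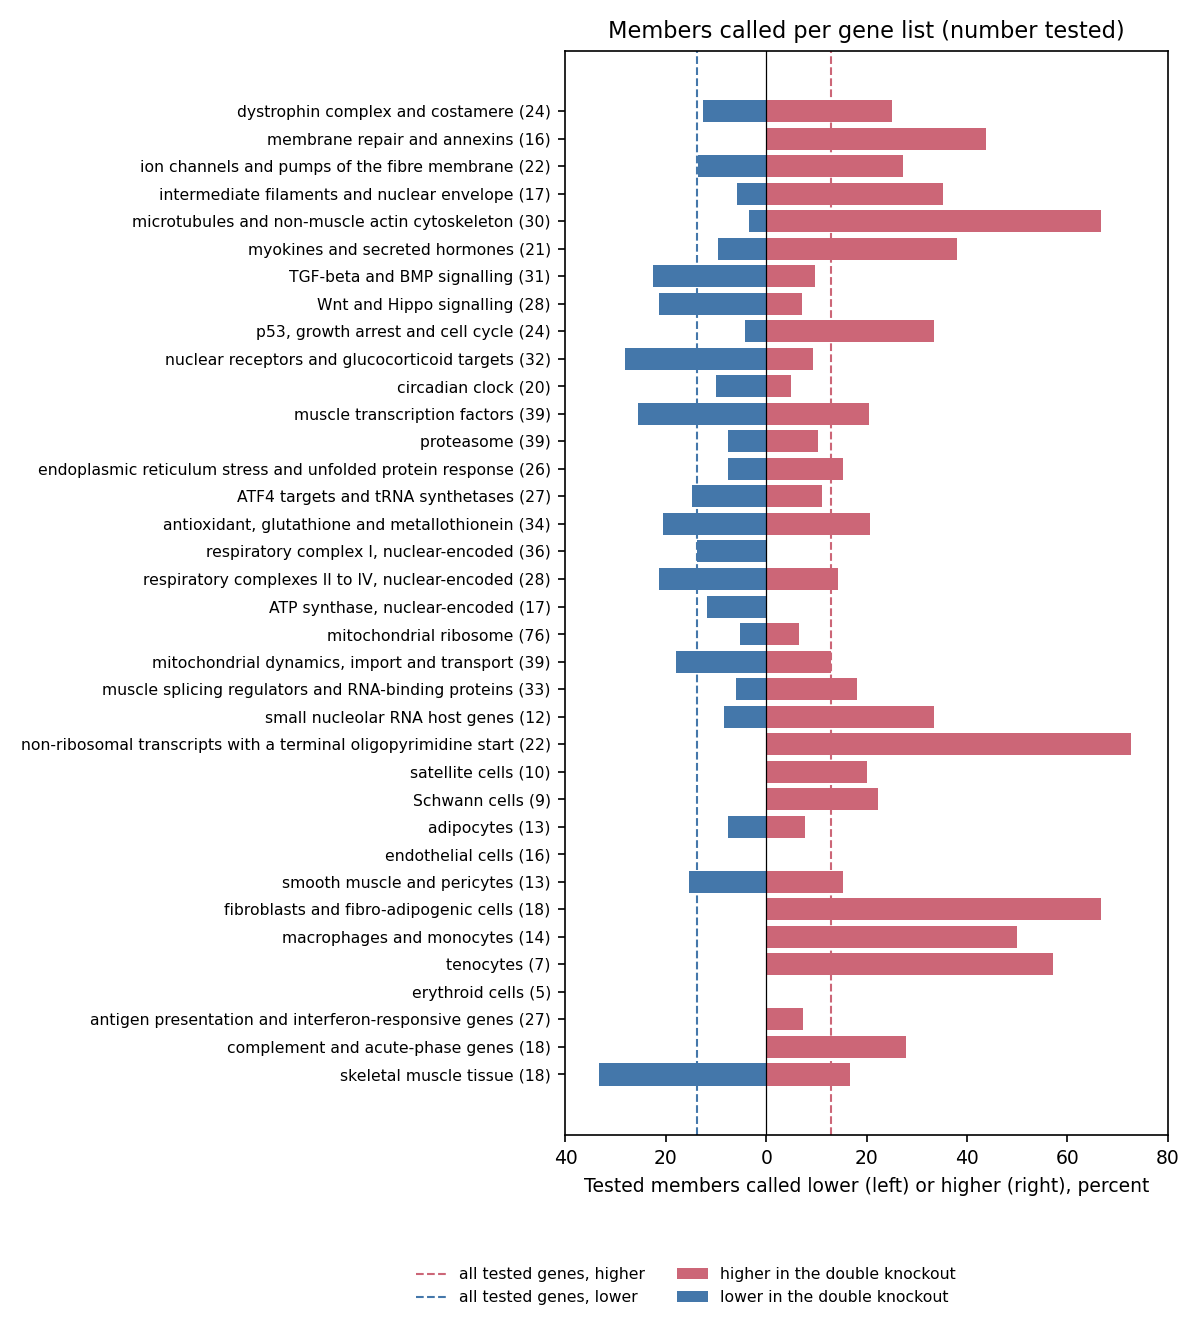
Percent of the tested members of each gene list called higher (red, right) or lower (blue, left) in the double knockout, with the number tested in parentheses. Dashed lines mark 13% and 13.7%, the shares over all 10505 tested genes. The longest red bars are those of the non-ribosomal oligopyrimidine transcripts (16 of 22), the cytoskeleton (20 of 30) and the fibroblast markers (12 of 18).

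Pairs of related genes were followed as the log2 ratio of the first to the second within each library. The form taken as typical of adult fast fibres or adult muscle was placed second. The second gene had the higher wild-type mean in 26 of the 28 pairs measured, and Fhl1 to Fhl3 and Cox7a2 to Cox7a1 were the exceptions. For these exceptions the wild-type levels do not bear out the order. Of 28 pairs measured of 31 listed, the ratio was higher in every double-knockout library than in any wild-type library for 19, lower for 0, and overlapped for 9. Taken singly, 13.1% of all tested genes were higher and 13.6% lower without overlap, and no such share was computed for ratios. Among the overlapping pairs drawn below, the mean ratio was lower for Mybpc1 to Mybpc2 (-0.38), Ldhb to Ldha (-0.48) and Eno1 to Eno3 (-0.63). The median change was 1.34 log2 units. In 8 pairs the first gene rose and the second fell, and Tnnt3 was the second gene of both the Tnnt1 and the Tnnt2 pair among them. For the troponin I pair Tnni1 and Tnni2, the ratio ran from -9.24 to -8.48 in wild type and from -6.50 to -5.34 in the double knockout. Tnni1, the slow form, was at 40.0, 29.0, 21.9 and 30.4 CPM in wild type and at 153, 166, 157 and 77.6 CPM in the double knockout, with the library lacking Xist the lowest of its group. Tnni2, the fast form, fell from 14570 ± 1453 to 6712 ± 241 CPM (-1.12, SE 0.12). The ratios of troponin T (Tnnt1 to Tnnt3) and troponin C (Tnnc1 to Tnnc2) were higher by 2.45 and 2.23.

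Ratios also rose in pairs outside the troponins. For the Z-disc pair Actn2 and Actn3 the ratio was higher by 2.63: Actn2 was at 222, 221, 128 and 385 CPM in wild type and at 1094, 1128, 932 and 912 CPM in the double knockout (2.09, SE 0.25), whereas Actn3 went from 3161 ± 379 to 2334 ± 290 CPM. The fall of Actn3 passed with TMM (-0.44, adjusted p = 0.0187) but not with library totals (-0.21, adjusted p = 0.284), nor without double-knockout replicate 3 (adjusted p = 0.0654) or replicate 4 (adjusted p = 0.0514). The LIM-domain pair Fhl1 and Fhl3, in which the first gene was the more abundant already in wild type, also changed by 2.63, with Fhl1 at 508 ± 129 and 1208 ± 165 CPM and Fhl3 at 94.5 ± 19.4 and 36.4 ± 2.37 CPM in wild type and double knockout. Sarcolipin and myoregulin are small inhibitors of the calcium pump of the sarcoplasmic reticulum. Sln to Mrln had the largest change, 6.14: Sln was at 32.9, 13.6, 6.91 and 6.31 CPM against 347, 199, 263 and 212 CPM, and Mrln at 145 ± 9.27 against 44.7 ± 12.5 CPM. Ampd1, the AMP deaminase of adult fibres, fell from 769, 871, 807 and 785 CPM to 268, 265, 243 and 247 CPM (-1.66, SE 0.13, adjusted p = 3.35e-07). In the translation machinery, Eef1a1 to Eef1a2 was higher by 1.48 and Rpl3 to Rpl3l by 1.52. Both elongation factor genes rose, Eef1a1 by 2.24 and the muscle form Eef1a2 by 0.77, while Rpl3 rose by 1.40 and the muscle form Rpl3l was at 346 ± 47.9 and 328 ± 6.91 CPM (-0.08, adjusted p = 0.678).

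**Figure D3:**
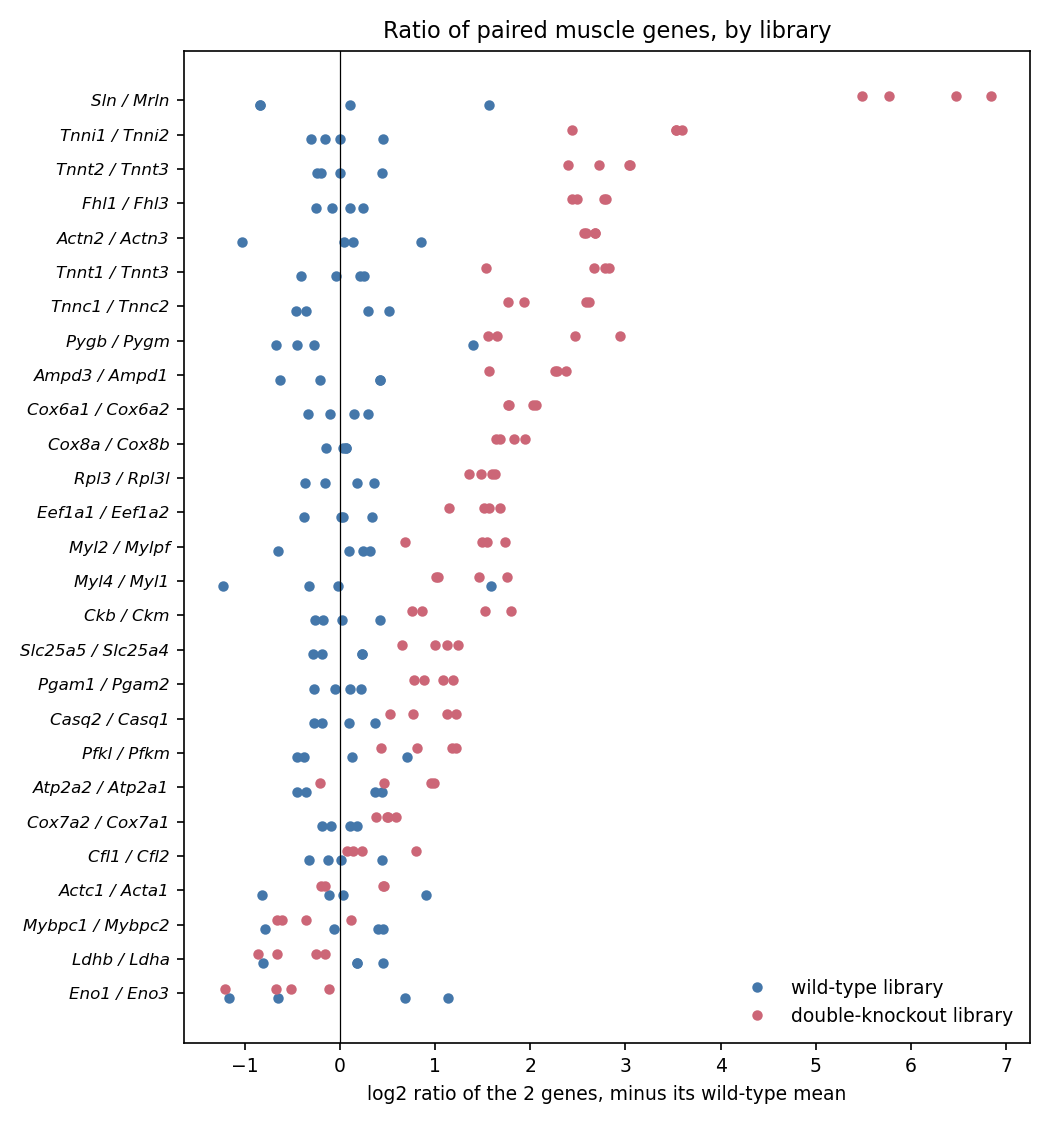
Log2 ratio of the first to the second gene of 27 of the 28 pairs in each library, minus the wild-type mean of that pair, so that wild-type libraries (blue) scatter around 0. Each point is 1 library, and in 19 pairs all 4 double-knockout points (red) lie to the right of all 4 wild-type points.

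Transcripts that begin with a pyrimidine run (5' terminal oligopyrimidine, TOP) encode ribosomal proteins and translation factors, and their translation is a known target of complex 1. Of 22 transcripts listed as such, without the Rpl and Rps genes but with Fau, 16 rose and 0 fell by this edgeR test. Over all tested genes the shares were 13% and 13.7%, and the list's median log2 fold change was 0.64. With Xist as a covariate 13 rose, without the Xist libraries 7, and without the smaller run 13. The run was absent at the RefSeq starts of the list members Eef1a1, Eef2, Tpt1 and Hnrnpa1. The 30 bases around the RefSeq start (GRCm38.p6) are shown for 5 risen genes picked because they carry the run, in capitals from the start. Rack1 and Fau are on the list, Gas5 is a small nucleolar RNA host gene, and Rps6 and Rpl38 are ribosomal protein genes.
Rack1: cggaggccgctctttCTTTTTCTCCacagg
Fau: tgcgcgcccccacttCTTCCTCTTTCTTga
Gas5: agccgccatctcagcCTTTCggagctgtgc
Rps6: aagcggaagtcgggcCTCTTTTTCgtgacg
Rpl38: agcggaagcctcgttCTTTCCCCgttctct
They lie at chr11:48800345-48800374 (plus strand), chr19:6057932-6057961 (plus), chr1:161035151-161035180 (plus), chr4:86857353-86857382 (minus) and chr11:114668565-114668594 (plus). A C at the RefSeq start followed by 4 bases that are each C or T was present in 3.11% of 8031 tested genes with a window, in 4.63% of the risen and in 2.58% of the fallen genes. It was present in 19.4% of 67 ribosomal protein genes and in 26.7% of 15 genes of the TOP list with a window. RefSeq starts need not be the starts used in muscle, and a match is a description.

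Rack1, a scaffold protein of the small ribosomal subunit, was at 276, 245, 298 and 307 CPM in wild type and at 531, 566, 490 and 532 CPM in the double knockout (0.91, SE 0.11, adjusted p = 1.88e-05). Fau, the precursor of a small-subunit protein, rose from 151 ± 10.1 to 239 ± 23.8 CPM, Rps6, a substrate of the S6 kinases, from 366 ± 38.7 to 777 ± 67.3 CPM, and Rpl38 from 240 ± 23.8 to 558 ± 47.2 CPM. These 4 genes were chosen after their values were seen. Tpt1, which encodes the translationally controlled tumour protein, rose from 2553 ± 190 to 4677 ± 255 CPM, and Eef1a1 from 210, 202, 243 and 166 CPM to 980, 1126, 966 and 810 CPM. Small nucleolar RNA host genes carry guide RNAs for ribosomal RNA in their introns. Of 12 tested, 4 rose and 1 fell, against 13% and 13.7% of all tested genes. Gas5 was at 67.7, 81.2, 93.3 and 64.5 CPM in wild type and at 203, 226, 181 and 176 CPM in the double knockout (1.36, SE 0.14, adjusted p = 5.92e-06), Epb41l4aos rose by 1.82 and Zfas1 by 0.97. Among 33 splicing regulators and RNA-binding proteins 6 rose and 2 fell (4 without wild-type replicate 4). Hnrnpa1, a splicing repressor that is also on the TOP list, rose from 45.5 ± 2.16 to 130 ± 13.7 CPM, and Rbfox2 rose by 0.79. Mbnl1, which sets adult splicing patterns in muscle, fell from 437 ± 66.2 to 227 ± 17.4 CPM (-0.94, SE 0.14, adjusted p = 9.41e-05).

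Protein degradation and stress lists stayed close to the background of 13% higher and 13.7% lower. Of 39 proteasome genes 4 rose and 3 fell, with a median log2 fold change of 0.05. Psmb1 and Psmc2, of the core and the cap, rose by 0.68 and 0.49, each without overlap between groups. Psme4, the proteasome activator PA200, fell from 249, 263, 204 and 241 CPM to 64.2, 57.4, 68.1 and 81.7 CPM (-1.82, SE 0.13, adjusted p = 2.55e-07), and was the list's largest change among the members named. Of 26 genes of the unfolded protein response 4 rose and 2 fell, with Herpud1, a factor of degradation at the endoplasmic reticulum, lower by -0.68 (SE 0.12). Of 27 ATF4 targets and tRNA synthetases 3 rose and 4 fell, and the list's median was -0.16 with TMM and 0.08 with library totals. Kars, the lysyl-tRNA synthetase, was higher by 0.71. These small counts moved with single libraries: without wild-type replicate 4, 7 proteasome genes rose and 7 fell, without wild-type replicate 2 the count of risen unfolded protein response genes was 0, and the fallen ATF4 targets were 2 with wild-type replicate 1, or either of double-knockout replicates 1 and 4, left out.

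Among 34 antioxidant, glutathione and metallothionein genes 7 rose and 7 fell, against 13% and 13.7% of all tested genes. Without double-knockout replicate 1 or 2 the risen were 4, and without the smaller run the fallen were 4. Metallothioneins bind zinc and copper, and the largest rises named in this list were theirs, chosen after their values were seen. Mt1 was at 12.9, 16.8, 59.5 and 55.9 CPM in wild type and at 212, 336, 124 and 155 CPM in the double knockout (2.48, SE 0.53, adjusted p = 0.00767). Mt2 was at 11.3, 6.79, 76.8 and 39.2 CPM and at 271, 390, 127 and 134 CPM (2.73, SE 0.73, adjusted p = 0.0253). The groups did not overlap, but wild-type replicates 3 and 4 were higher than the other wild-type libraries for both genes. With Xist as a covariate the adjusted p of Mt2 was 0.0547 at a log2 fold change of 2.19, and it was 0.0512 without wild-type replicate 1, 0.0529 without double-knockout replicate 1 and 0.0615 without double-knockout replicate 2. Metallothionein promoters are known for metal response elements, whose core is TGCACNC or TGCGCNC. The 30 bases from 2 before the RefSeq start of Mt1, at chr8:94179087-94179116 (plus strand, GRCm38.p6), are shown because they hold such cores, in capitals.
Mt1: gctcTGCACTCcgcccgaaaagTGCGCTCg
On either strand the 300-base RefSeq windows held 3 such cores for Mt1 and 4 for Mt2. Windows with 3 or more made up 4.11% of those tested, 3.55% of those of risen and 4.54% of those of fallen genes. A match is a description here too. The glutathione transferases Gstm1 and Gstm2 fell, from 126 ± 23.0 to 58.3 ± 6.62 CPM and from 48.7 ± 11.2 to 21.2 ± 6.04 CPM.

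Most nuclear genes for the respiratory chain did not pass the test in either direction. Over all tested genes 13% rose and 13.7% fell. Of 36 nuclear genes of complex I 0 rose and 5 fell by this edgeR test, of 28 of complexes II to IV 4 rose and 6 fell, and of 17 of the ATP synthase 0 rose and 2 fell. The medians of complex I and of complexes II to IV were -0.10 and -0.14 with TMM and 0.14 and 0.09 with library totals, so their sign depends on the scaling. Wild-type replicate 4 had the highest summed level of all 3 lists. Without it 9 genes of complexes II to IV and 4 of the ATP synthase rose, and the fallen genes of complex I ran from 2 (without double-knockout replicate 1 or 3) to 9 (without wild-type replicate 3). Ndufb2, an accessory subunit of complex I, fell from 325 ± 62.5 to 201 ± 19.1 CPM. In complex IV, Cox8a rose from 44.9, 47.2, 41.1 and 57.5 CPM to 127, 151, 121 and 134 CPM (1.48, SE 0.14, adjusted p = 1.6e-06), and Cox6a1 rose by 1.06 while its heart and muscle form Cox6a2 was lower by -0.81. Cox7a2l, an assembly factor of respiratory supercomplexes, rose from 177 ± 38.9 to 341 ± 32.8 CPM. Of 15 tested mitochondrially encoded genes 0 rose and 6 fell by this edgeR test, with a median log2 fold change of -0.49, and DESeq2 gave the same counts. With library totals 1 rose and 2 fell (median -0.25), with Xist as a covariate 1 fell, without the Xist libraries 0, and without double-knockout replicate 1 3. Together they took 26.4% to 30.5% of the counts in wild type and 21.4% to 26.2% in the double knockout. These ranges nearly met, at 26.35% in wild-type replicate 3 and 26.23% in double-knockout replicate 4. Set against 26.8% of all tested genes, 3 of these 15 genes did not overlap between groups. Of these genes, mt-Nd2 was at 39653, 39904, 28489 and 24922 CPM in wild type and at 13664, 12925, 19887 and 22743 CPM in the double knockout, with the 2 libraries of the smaller run nearer to wild type. Its fall did not pass against wild-type replicates 3 and 4 alone (-0.61, adjusted p = 0.1003). Of 76 mitochondrial ribosome genes 5 rose and 4 fell, a smaller share than over all genes in either direction, with Mrps2 higher by 0.96 and Mrpl36 lower by -0.90, and without wild-type replicate 4 the risen were 10. Of 39 genes of mitochondrial dynamics, import and transport 5 rose and 7 fell, and the risen were 8 without wild-type replicate 4 and 2 without the smaller run. Mfn2, which fuses outer membranes, fell from 193, 201, 148 and 272 CPM to 94.8, 115, 90.1 and 107 CPM (SE of the log2 fold change 0.16), Slc25a33, a pyrimidine nucleotide carrier, was lower by -1.84, and Phb2, a prohibitin of the inner membrane, and the adenine nucleotide carrier Slc25a5 were higher by 0.70 and 0.86.

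Secreted signals and their pathways moved in both directions. For comparison, 13% of all tested genes rose and 13.7% fell. Of 21 tested myokine and hormone genes 8 rose and 2 fell, and the median log2 fold change was 0.82. The fallen were 0 with the run as a covariate, without the smaller run or with limma on TPM plus 1. They were also 0 against wild-type replicates 3 and 4 alone. The risen were 6 with Xist as a covariate and 11 with limma on TPM plus 1. Igf2, a growth factor of developing muscle, had the smallest adjusted p of these (3.67, SE 0.19, adjusted p = 1.61e-08). Of 31 genes of TGF-beta and BMP signalling 3 rose and 7 fell, with a median of -0.18 that became 0.04 with library totals. The fallen were 3 with the run as a covariate, without the smaller run or with library totals, 2 against wild-type replicates 3 and 4 alone and 0 with limma on TPM plus 1. Gdf11, a ligand closely related to myostatin, was at 6.44, 8.58, 5.59 and 8.34 CPM in wild type and at 1.26, 0.808, 1.59 and 1.16 CPM in the double knockout (-2.53, SE 0.31, adjusted p = 2.25e-05). Id2, a target of BMP signalling that blocks myogenic factors, rose from 6.39 ± 1.71 to 15.4 ± 3.71 CPM. Of 28 Wnt and Hippo genes 2 rose and 6 fell (median -0.15 with TMM and 0.08 with library totals), and 5 rose without wild-type replicate 3. With library totals 6 rose and 3 fell, and with limma on TPM plus 1, 5 rose and 2 fell. The fallen were also 2 with Xist as a covariate or against wild-type replicates 3 and 4 alone. The ligand Wnt4 fell from 30.1, 24.0, 29.6 and 20.3 CPM to 7.90, 11.3, 6.89 and 6.10 CPM (-1.69, SE 0.22), and Yap1, the Hippo effector, rose from 33.8 ± 4.82 to 57.2 ± 6.63 CPM.

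Of 32 nuclear receptors and glucocorticoid targets 3 rose and 9 fell, against 13% and 13.7% of all tested genes. The list's median log2 fold change was -0.18 with TMM and 0.05 with library totals. The risen were 1 with replicate 1 of either genotype left out and 5 without wild-type replicate 3. The retinoid X receptor Rxrg, the form most typical of muscle, was at 77.7 ± 5.45 CPM in wild type and at 33.7 ± 3.20 CPM in the double knockout (-1.20, SE 0.14, adjusted p = 1.49e-05). Rora, an orphan receptor that also acts in the clock, fell from 166 ± 31.2 to 83.1 ± 13.2 CPM. Of 20 clock genes 1 rose and 2 fell, below the 13% and 13.7% of all tested genes. Per2 went from between 2.48 and 4.77 CPM to between 6.32 and 10.8 CPM, and Rora and the output factor Hlf (-1.53, SE 0.27) fell. The time of day of collection is not in the labels.

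Of 39 muscle transcription factors 8 rose and 10 fell, against 13% and 13.7% of all tested genes. Without the smaller run 4 rose and 6 fell. Sox6, a repressor of slow-fibre genes, fell from 159, 129, 145 and 151 CPM to 64.2, 49.8, 67.3 and 57.8 CPM (-1.29, SE 0.15, adjusted p = 9.92e-06). Srf, the serum response factor that drives actin and other cytoskeletal genes and was chosen after its values were seen, was at 8.74, 11.1, 9.54 and 4.73 CPM in wild type and at 0.316, 4.31, 1.33 and 2.03 CPM in the double knockout (-2.03, SE 0.48, adjusted p = 0.00648). Without the smaller run the adjusted p of Srf was 0.0792, and against wild-type replicates 3 and 4 alone it was 0.0631. Klf5, a factor of muscle differentiation, rose from 12.9 ± 2.99 to 29.9 ± 3.38 CPM. Of 24 genes of p53, growth arrest and the cell cycle 8 rose and 1 fell. The risen were 5 without wild-type replicate 2, double-knockout replicate 1 or double-knockout replicate 3, and 4 with the run or Xist as a covariate or without the smaller run. The fallen were 4 without wild-type replicate 4, 3 without wild-type replicate 3 and 2 without double-knockout replicate 3. Ccnd1, the cyclin of the early cell cycle, was at 6.67, 12.5, 7.89 and 4.73 CPM in wild type and at 28.4, 20.7, 27.8 and 29.6 CPM in the double knockout (1.78, SE 0.23), and the antiproliferative Btg2 rose from between 7.87 and 24.0 CPM to between 41.3 and 74.6 CPM. Ccng1, a p53 target, was the member that fell, from 469 ± 33.0 to 223 ± 16.1 CPM.

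**Figure D4:**
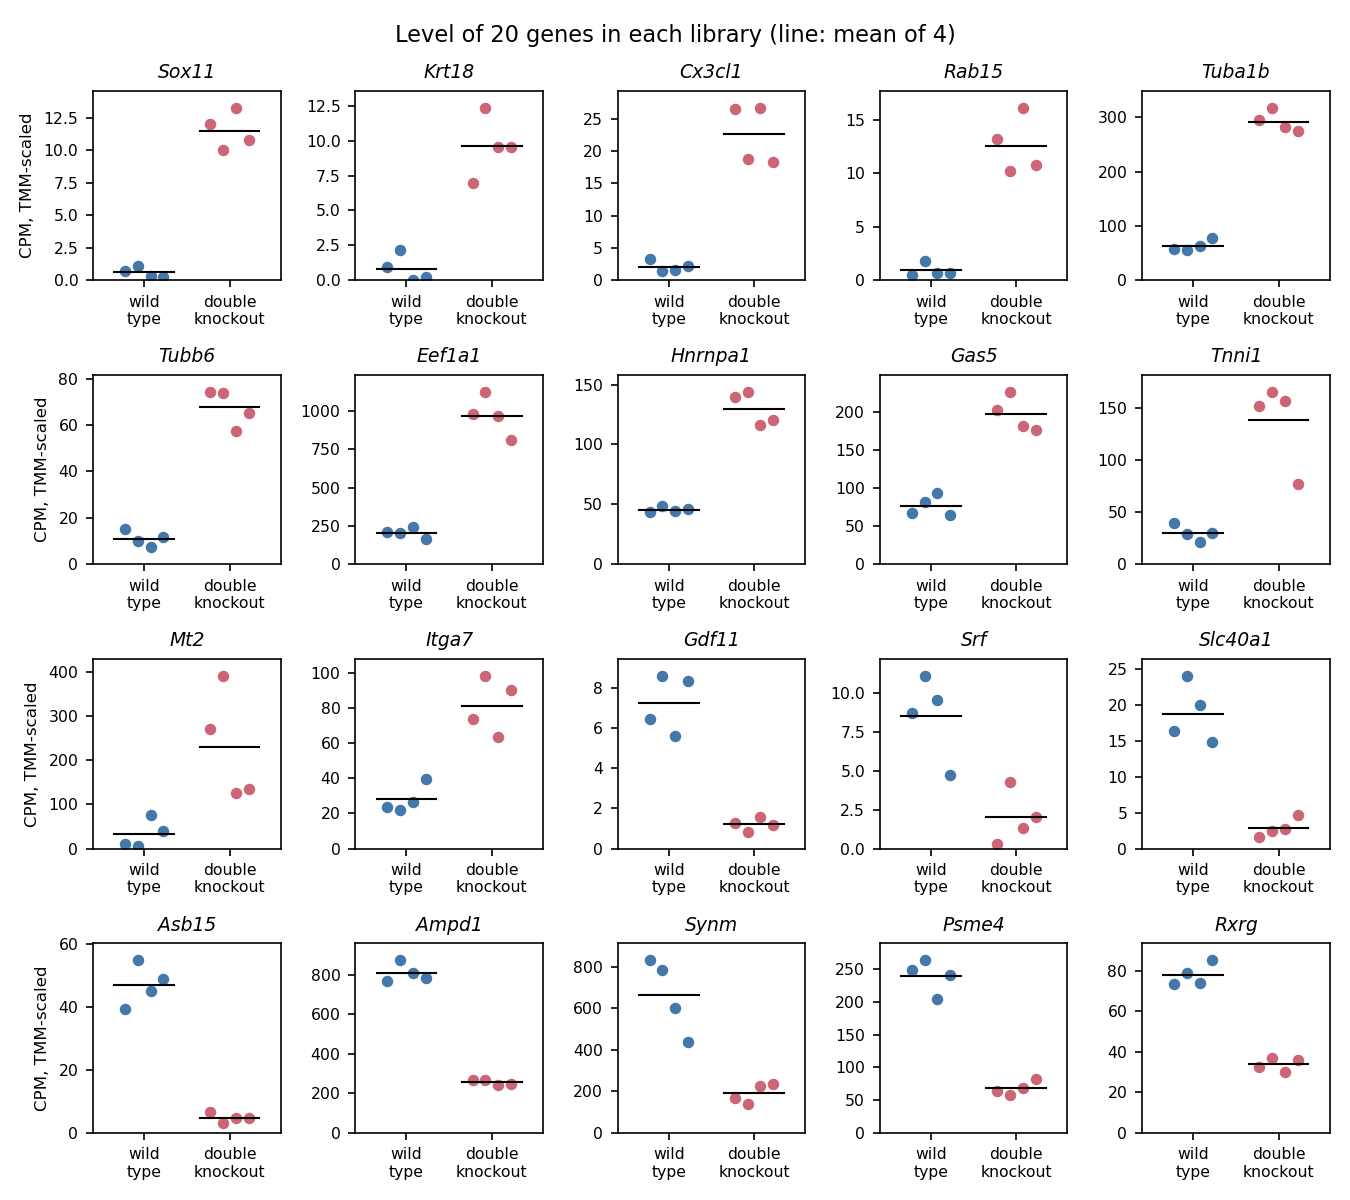
Level of 20 genes in each wild-type (blue) and double-knockout (red) library in CPM, on linear axes that start at 0, with the mean of 4 libraries as a line. In each panel the groups do not overlap; the libraries spread most in Mt2, and 1 double-knockout library lies below the other 3 in Tnni1.

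Markers of other cell types were measured in the same libraries, where fewer cells of a type and less RNA per cell cannot be told apart. Of 18 fibroblast and fibro-adipogenic genes 12 rose and 0 fell by this edgeR test, against 13% and 13.7% of all tested genes. Their summed levels, given above for the cytoskeleton, did not overlap between groups. The number that rose was 8 with the Xist covariate, 1 without the Xist libraries and 7 against wild-type replicates 3 and 4 alone. Mfap5, a microfibril protein, rose from 7.13, 12.9, 19.9 and 24.8 CPM to 66.7, 57.4, 55.4 and 41.8 CPM (1.75, SE 0.28). Of 14 macrophage and monocyte genes 7 rose and 0 fell, again with summed levels that did not overlap. Here it was 4 with the Xist covariate, without the smaller run, or with replicate 1 of either genotype or double-knockout replicate 2 left out, 1 without the Xist libraries and 2 against wild-type replicates 3 and 4 alone. Lgals3, a galectin of activated macrophages that other cells also make, rose from 7.48 ± 2.31 to 24.5 ± 4.46 CPM, Cd163, a haemoglobin scavenger receptor, by 1.11 and C1qb, a complement subunit, by 0.97. The last 2 did not pass against wild-type replicates 3 and 4 alone (adjusted p = 0.0510 and 0.0513). Of 7 tested tenocyte genes 4 rose, among them Tnmd, which was higher by 1.23. Endothelial and erythroid markers gave 0 calls of 16 and of 5 (edgeR), and at an unadjusted p under 0.05 they held 1 and 0, and without wild-type replicate 4 the endothelial list held 3 rises. Wherever a list is given 0 calls in a direction by the main edgeR test, DESeq2 also gave 0. At an unadjusted p under 0.05 edgeR gave 0 as well, apart from that endothelial gene and 2 lower genes of antigen presentation. Of 10 tested satellite cell genes 2 rose, Itga7 and Des, which fibres also express.

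Over all tested genes 13% rose and 13.7% fell. Of 27 antigen presentation and interferon-responsive genes 2 rose and 0 fell, below these shares, with Stat3 higher by 0.80, and without wild-type replicate 4 8 rose. Of 18 complement and acute-phase genes 5 rose, 3 without double-knockout replicate 3 and 9 without double-knockout replicate 4. C1qb, given above with the macrophage genes, is also on this list. Of 13 adipocyte genes 1 rose (5 without wild-type replicate 3) and 1 fell: the fall was that of Lpl, lipoprotein lipase, from 577 ± 112 to 302 ± 55.3 CPM. The immunoglobulin gene Ighm was at 40.7, 35.4, 4.61 and 79.1 CPM in wild type and at 3.16, 6.20, 2.39 and 1.74 CPM in the double knockout. Its groups overlapped, and its call (-3.54, SE 0.92, adjusted p = 0.0215) was lost with Xist as a covariate (adjusted p = 0.264) and without double-knockout replicate 1 (0.0555), 3 (0.0564) or 4 (0.0503).

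Among the double-knockout libraries, replicate 2 lay farthest from the rest. Its counts differed from those of replicates 3 and 4 by a chi-square of 18.5 and 16.0 per degree of freedom, more than from Raptor knockout replicates 1 and 3 (10.1 and 9.70), while the other pairs within the group were 6.38 to 8.65 apart. The median SD of log2 CPM over tested genes was 0.31 in wild type and 0.25 in the double knockout. The median difference of the risen genes from the wild-type mean was 0.93, 0.97, 0.85 and 0.84 log2 units in double-knockout replicates 1 to 4, and that of the fallen genes -0.85, -0.87, -0.82 and -0.82. These genes were chosen by this contrast, so their medians are a description. Replicate 4, the double-knockout library without Xist, had the lowest Tnni1 and Tnnt1 levels of its group.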

How the data were processed

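Gene expression was measured in gastrocnemius of 4 wild-type, 3 Raptor knockout and 4 double-knockout samples. The authors deposited expected counts for each gene, not normalized, and a table of TPM. The submitters' processing notes name fastp 0.20.0, STAR 2.7.0, RSEM 1.3.3 and the genome GRCm38 (mm10). No annotation release, filter or strand setting is given in the sources used here. Genes that overlap on opposite strands or have near-identical copies are therefore uncertain. Of the columns, 6 matched no sample and were left out.

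The expected counts were rounded (2.25% were not whole). They were tested with edgeR 4.0.16 in R 4.3.3: filterByExpr by group (10505 genes, 99.54% of counts), TMM, and a robust quasi-likelihood fit of 3 groups over all 11 libraries with 8 residual degrees of freedom. Tests were two-sided and adjusted by Benjamini-Hochberg over all tested genes. The biological coefficient of variation was 20.6%. CPM are TMM-scaled, and SE is that of the log2 fold change. No 2 libraries agreed within sampling noise (chi-square per degree of freedom 3.33 to 69.1). The pipeline was tested on simulated counts. Every simulated gene had the same biological coefficient of variation, and fewer genes were changed than were called here. Run and Xist differences were not simulated. The pipeline recovered 12.7% of 1.5-fold, 71.0% of 2-fold and 95.2% of 4-fold changes, with 4 calls among 9802 unchanged genes. These rates need not hold for the real libraries, and genes that were not called may hold changes of 1.5-fold.

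Gene lists and pairs are described by counts and medians with no test. The lists, pairs and comparison were chosen with earlier results of these data known. The naming rule covered Rptor and Mtor; the 15 largest rises and 15 largest falls that passed the test at a mean log2 CPM of 3 or more, without overlap between groups and without predicted or pseudogene symbols; the 8 largest gains and 8 largest losses in CPM; up to 3 called members of each list; and both genes of each pair. A part of these is reported, and some genes and 1 pair are not reported here. Sequences are from RefSeq windows on GRCm38.p6, which 8031 tested genes have.

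The alternatives tried were size factors from DESeq2, library totals, no filter, a fit of the 2 groups alone, the sequencing run or Xist as a covariate, omission of the smaller run, omission of the Xist libraries, the DESeq2 1.42.0 Wald test, limma 3.58.1 on log2 TPM plus 1 or 0.1 with a mean TPM of at least 1 or no filter, and omission of each library in turn. A fit with wild-type replicates 3 and 4 as the only wild-type libraries was added after the data were seen.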

Additional observations from a re-analysis of the deposited data

Results flagged for a closer look

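In 12 of 234 groups of 4 libraries, 1 library lay far from the other 3, by the gap to its neighbour over the whole range of the group; chance gives about 1 in 20 such groups, which is close to this share. In wild type these were Actr3b in replicate 3 (8.55 CPM, the others 33.6 to 36.7), Myh1 in replicate 3 (1310 CPM, the others 1823 to 1907), Rab15 in replicate 2 (1.79 CPM), Fau in replicate 4 (136 CPM), Tnnc2 in replicate 4 (24461 CPM), Gm10925 in replicate 4 (47149 CPM) and Tpm1 in replicate 1 (21030 CPM). In the double knockout they were Flrt1 in replicate 2 (12.4 CPM, the others 26.9 to 29.4), Gstm2 in replicate 2 (30.2 CPM), Ttc9, a tetratricopeptide protein, in replicate 2 (29.6 CPM, the others 19.8 to 20.4), Tnni1 in replicate 4 (77.6 CPM, the others 153 to 166) and Tubb5 in replicate 1 (202 CPM, the others 170.0 to 173). For each of these genes the wild-type and double-knockout libraries did not overlap.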

How the results depend on the processing

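The counts of 1367 genes higher and 1435 lower became 2421 and 844 with library totals, 882 higher with Xist as a covariate, 238 and 234 without the Xist libraries, and 734 and 857 with wild-type replicates 3 and 4 as the only wild-type libraries (added after the data were seen). With limma on TPM 779 genes were lower with a pseudocount of 1, 765 with 0.1 and 653 with no filter. Over all tested genes, leaving out each library in turn gave 1009 to 1655 higher and 1133 to 1689 lower. All 116 called genes followed here kept their direction under each alternative that gave them a value. They were called from the same libraries, so the kept direction is a description. For genes whose groups do not overlap, leaving out a library can hardly reverse it. Under each alternative 0 to 8 of the 116 genes lost the call, except without the Xist libraries, where more did and 1 double-knockout library stood alone. The losses outside that fit came from Actn3, C1qb, Cd163, Gm10925, Ighm, Mt2, Mtor, Rptor, Srf and the 5 mitochondrially encoded genes named. Rpl3l, which was not called, changed sign with library totals (0.16), Xist as a covariate (0.00732), TPM plus 1 (0.092), TPM plus 0.1 (0.092), TPM plus 1 with no filter (0.092) and without wild-type replicate 4 (0.024), and ran from -0.15 to 0.024 with a library left out; the cause was not tested. No paired analysis was possible because the labels give the libraries no replicate numbers that the groups share; the numbers in the sample titles differ for every library. Depth limits genes at a few CPM, where 1 CPM is about 3 to 6 counts.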
